A study of Mus musculus with 12 samples.

Results

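The 8 genes described here encode integrin chains that are carried mainly by leukocytes, namely Itgb2, Itgax, Itgam, Itgad, Itgal, Itga4, Itgb7 and Itgae. They are the rows of the deposited gene table whose symbol is one of these names, 8 of 55281 genes, and each was measured in all 12 libraries. RNA was sequenced in bulk from the gonadal white fat (GWAT) of male mice. WT mice carried floxed Hoip alleles without Cre (Hoip fl/fl AdipoQ.Cre-), and HoipA-KO mice were their littermates with Cre under the Adiponectin promoter (Hoip fl/fl AdipoQ.Cre+), so that Hoip (Rnf31, the catalytic subunit of the linear ubiquitin ligase LUBAC) is deleted in mature adipocytes and not in the leukocytes of the tissue. From 6 weeks of age the mice received a control diet (CD, 14% fat) or a high-fat diet (HFD, 60% fat) for 16 weeks, and the tissue was taken at 22 to 24 weeks of age. The 4 groups are WT CD, WT HFD, HoipA-KO CD and HoipA-KO HFD, each with 3 libraries, and each library pooled the RNA of 3 mice. The error given below therefore reflects the spread between pools and not between single mice. The SE of a fold change comes from a model in which all 4 groups share an estimate of this spread. It is not the spread of the groups compared alone.

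Integrins are cell surface receptors made of 1 alpha and 1 beta chain that bind other cells and the extracellular matrix. The beta2 chain, Itgb2 (CD18), pairs with the alpha chains Itgal (CD11a), Itgam (CD11b), Itgax (CD11c) and Itgad (CD11d), and the alpha chains do not reach the cell surface without it. The beta7 chain, Itgb7, pairs with Itga4 (CD49d) for homing to mucosal vessels and with Itgae (CD103) for retention beside epithelium, while Itga4 also pairs with the beta1 chain. In adipose tissue Itgax is widely used as a mark of the macrophages that gather around dying adipocytes in obesity. Genotype and diet were compared to ask whether the transcripts of these receptors follow the loss of Hoip in adipocytes, the diet, or both.

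Itgam, Itgax and Itgad lie next to each other on the plus strand of chromosome 7 (GENCODE M21 annotation of GRCm38, matched by gene identifier). Itgam spans chr7:128062640-128118491, Itgax spans chr7:128129547-128150657 and Itgad spans chr7:128154376-128223816, with gaps of 11.1 kb and 3.7 kb between them. Itgal lies 727.5 kb before Itgam, at chr7:127296260-127335138. The others are on separate chromosomes, Itgb2 at chr10:77530252-77565708, Itga4 at chr2:79255426-79333123, Itgae at chr11:73090583-73147446 and Itgb7 at chr15:102215995-102231944 on the minus strand. Itgax and Itgad are close copies, and of the different 31-base words in the annotated transcripts of Itgax 10.7% also occur in those of Itgad, and of those of Itgad 11.3% occur in Itgax and 17.5% in any other gene. The coding sequences of their longest coding transcripts share 8 exact runs of 31 bases or more. The longest, 188 bases (position 1274 to 1461 of the Itgax transcript), is shown because a read wholly within it cannot be assigned to either gene by its own sequence:

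Itgax and Itgad: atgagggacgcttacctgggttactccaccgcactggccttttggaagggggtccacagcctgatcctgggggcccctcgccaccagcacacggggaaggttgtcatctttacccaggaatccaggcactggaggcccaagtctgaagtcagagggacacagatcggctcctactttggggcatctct

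Itgam shared 67.2% of its words with Gm49368, an annotated gene that overlaps it on the same strand, but Gm49368 itself received at most 3.14 CPM (counts scaled to library size, with TMM normalization) in any library. The remaining 5 genes shared at most 2.28% of their words with any gene.

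The 250 bases before the start sites of Itgam and Itgax (RefSeq, GRCm38.p6, plus strand) are shown because these neighbouring genes followed each other closely over the libraries (Pearson's r of log2(CPM + 1) 0.992 over 11 libraries, which fall into groups). Itgam had the same r of 0.992 with Itgb2, which lies on chromosome 10. Itgax had an r of 0.726 with Itgad, its nearer neighbour at 3.7 kb. A link between position and level was not tested. Capitals mark GAGGAA or its complement TTCCTC, the core of sites bound by PU.1, a transcription factor of myeloid cells. Itgam holds it at 84 and 15 bases before the start, Itgax holds none in this window, and 23.3% of the 32851 windows of the same length in the RefSeq table hold it on either strand. Windows were at hand for 4 of the 8 genes, and those of Itga4 and Itgb7 held no match either.

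Itgam, chr7:128062390-128062639: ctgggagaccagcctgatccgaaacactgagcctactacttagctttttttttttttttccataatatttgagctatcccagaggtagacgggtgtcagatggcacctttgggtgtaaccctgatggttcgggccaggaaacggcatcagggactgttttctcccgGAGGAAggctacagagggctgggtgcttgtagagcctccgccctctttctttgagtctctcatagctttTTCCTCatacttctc

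Itgax, chr7:128129300-128129549: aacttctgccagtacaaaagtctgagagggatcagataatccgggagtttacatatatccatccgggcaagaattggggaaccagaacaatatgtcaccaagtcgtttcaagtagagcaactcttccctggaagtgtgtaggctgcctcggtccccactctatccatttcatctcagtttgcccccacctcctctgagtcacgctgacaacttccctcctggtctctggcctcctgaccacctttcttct

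Between 30513500 and 60540260 estimated counts were assigned to genes per library, at which 3 counts, taken as the floor, equal 0.0496 to 0.0983 CPM. WT CD libraries stood apart. The summed level of 10 markers of epididymis and sperm was 19150 CPM in WT CD replicate 2 and 5262 in replicate 3, against 13.2 in replicate 1 and at most 96.3 elsewhere except 1578 in HoipA-KO HFD replicate 1. Pearson's r across genes was 0.785 to 0.907 between WT CD replicates and 0.971 to 0.993 within the other groups. The study's own comparisons leave out WT CD replicate 3, so fold changes below come from 11 libraries, with the value over all 12 where it differs. Rnf31 was 12.6 to 20.7 CPM in WT CD and 17.9 to 21.7 CPM in HoipA-KO CD, so its level in whole tissue does not check the labels of a deletion in adipocytes. Adipocyte markers were present in every library, and their sum was lower in every HoipA-KO library than in every WT library. Lep (560 to 2097 CPM in WT and 836 to 1030 in HoipA-KO) and Pparg (82.6 to 306 and 69.7 to 98.7) overlapped between genotypes on CD. The sums are given beside the other markers.

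**Figure D1:**
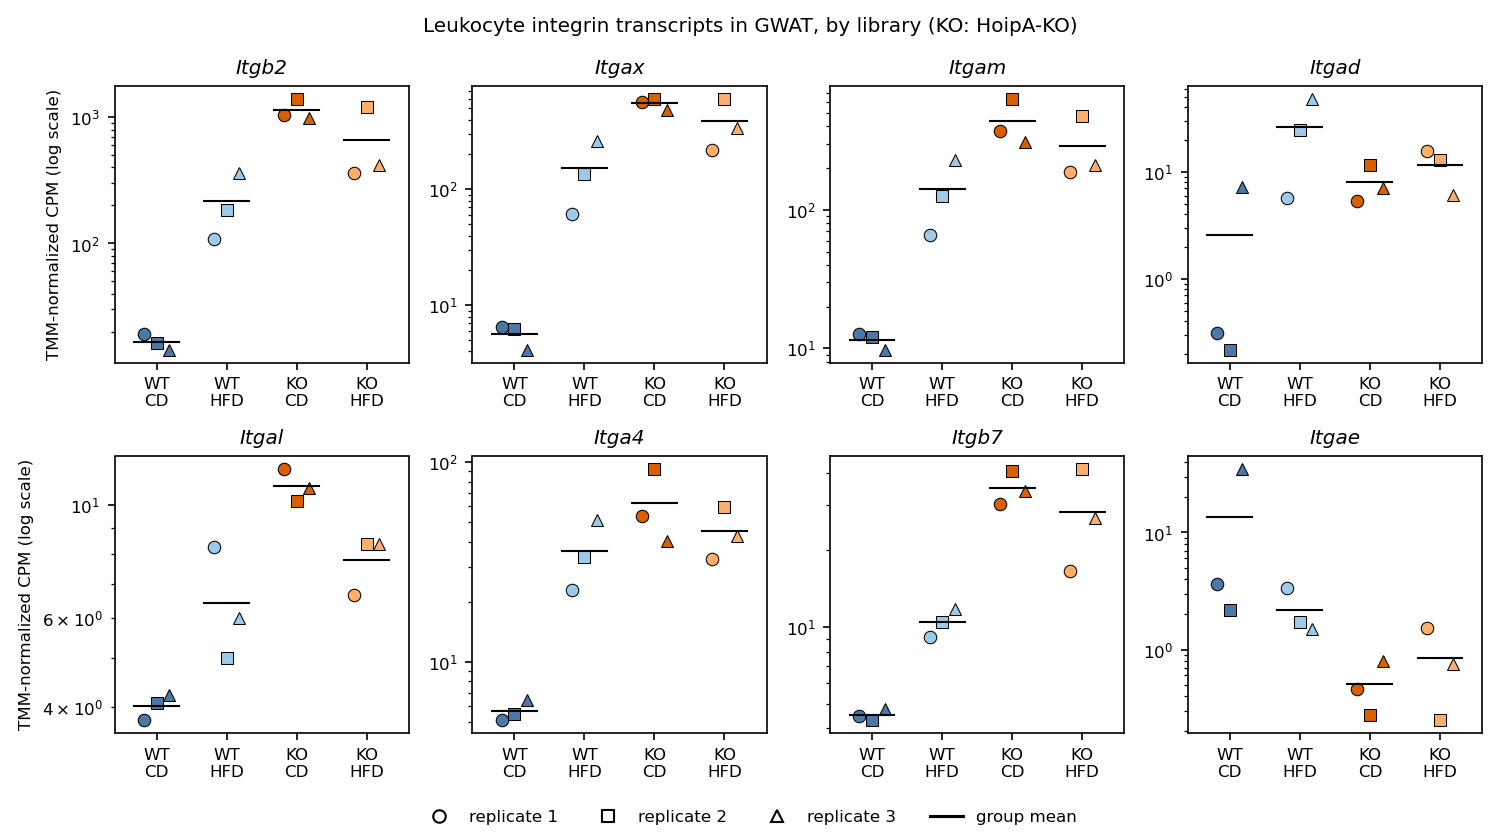
TMM-normalized CPM (log axis) of the 8 integrin genes in each of the 12 libraries, with 1 panel per gene, symbols for replicates and a line for the mean of 3 libraries. Itgb2, Itgax and Itgam have their lowest mean in WT CD and their highest in HoipA-KO CD, while Itgae has its lowest means in the HoipA-KO groups and both Itgad and Itgae have 1 high WT CD library, replicate 3.

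Because the genes were chosen by their CPM levels over the 4 groups of these libraries, their differences between groups are given as a description and without p-values, and counts past a threshold are set beside the share of all genes. On CD Itgb2, Itgax and Itgam were far higher in HoipA-KO GWAT. Itgb2, the shared beta chain, had 19.3, 16.3 and 14.3 CPM in WT on CD and 108, 185 and 360 CPM on HFD. The HoipA-KO libraries had 1050, 1407 and 981 CPM on CD and 364, 1212 and 422 CPM on HFD. All libraries of the other 3 groups lay above those of WT CD, and all HoipA-KO CD libraries lay above those of WT HFD. The fitted log2 fold change between HoipA-KO and WT on CD was 6.01 (SE 0.577), a 64.4-fold difference.

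Itgax had 6.54, 6.25 and 4.12 CPM in WT on CD and 61.8, 135 and 259 CPM on HFD. Among HoipA-KO libraries it reached 567, 606 and 485 CPM on CD and 220, 606 and 338 CPM on HFD. Its difference on CD, 6.44 on the log2 scale (SE 0.543) or 86.6-fold, was the largest of the 8 genes. The libraries of HoipA-KO CD overlapped neither those of WT CD nor those of WT HFD, whereas HoipA-KO HFD replicate 1 lay within the range of WT HFD. Itgam, the alpha chain of complement receptor 3, had 12.8, 12.2 and 9.75 CPM in WT on CD and 65.8, 127 and 229 CPM on HFD. HoipA-KO mice gave 369, 635 and 307 CPM on CD and 187, 472 and 211 CPM on HFD. Its genotypes overlapped on HFD and not on CD, where the log2 fold change was 5.13 (SE 0.551).

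Itgal, the alpha chain of LFA-1 on lymphocytes and other leukocytes, differed much less. Its libraries had 3.77, 4.08 and 4.23 CPM in WT on CD and 8.26, 5.00 and 6.00 CPM on HFD. Its HoipA-KO levels were 11.7, 10.2 and 10.8 CPM on CD and 6.64, 8.36 and 8.39 CPM on HFD. The groups on CD did not overlap, and the log2 fold change was 1.47 (SE 0.234). Itgal was the one member whose HoipA-KO HFD libraries all lay below those of HoipA-KO CD.

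Itgad differed from the other beta2 partners in its order over the groups. On CD the WT libraries had 0.311, 0.217 and, in replicate 3, 7.21 CPM, and on HFD 5.65, 24.8 and 48.3 CPM. The levels in HoipA-KO were 5.37, 11.5 and 7.02 CPM on CD and 15.6, 12.8 and 6.06 CPM on HFD. Its highest values were thus in WT HFD, with a log2 fold change of 6.65 (SE 0.868) between diets in WT and -1.72 (SE 0.637) between HoipA-KO CD and WT HFD, where WT HFD replicate 1 lay within the range of HoipA-KO CD. For every 100 counts assigned to Itgax, Itgad received 9.14 to 18.7 in WT mice on HFD, while in HoipA-KO mice it received 0.948 to 1.89 on CD and 1.80 to 7.10 on HFD, so that it did not follow Itgax in a fixed ratio. In WT CD it received 4.76 in replicate 1, 3.47 in replicate 2 and 175 in replicate 3. A read that lies wholly within a run shared with Itgax cannot be assigned by its own sequence. The part of such reads in the Itgad counts was not tested.

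WT CD replicate 3 decides the level of Itgad and Itgae in WT CD. With it, the log2 fold change of Itgad on CD was 1.58 (SE 1.14) in place of 4.92 (SE 0.870), and between diets in WT 3.34 in place of 6.65. The gene 4931431B13Rik, without protein product, lies on the opposite strand within Itgad. Its span, introns included, reaches 9 annotated exons of Itgad, and overlap between the exons of both genes was not examined. In WT CD replicate 3 it had 6.75 CPM, against at most 0.142 in the other libraries. Itgae had 34.8 CPM there, and Haspin (a protein kinase gene expressed in testis, chr11:73135485-73138294, on the opposite strand between exons of Itgae) had 454 CPM, against 1.05 to 5.05 in the other 11 libraries. The part of these overlapping genes and of sperm RNA in the values of Itgad and Itgae in this library was not tested.

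Of the beta7 receptors, Itgb7 and Itga4 were higher in HoipA-KO on CD and Itgae was lower. Itgb7 had 4.49, 4.30 and 4.77 CPM in WT on CD and 9.12, 10.5 and 11.7 CPM on HFD. For HoipA-KO the values were 30.4, 40.8 and 34.1 CPM on CD and 16.5, 41.6 and 26.7 CPM on HFD. The genotypes overlapped on neither diet, with log2 fold changes of 3.00 (SE 0.321) on CD and 1.44 (SE 0.283) on HFD. Itga4 had 5.08, 5.47 and 6.44 CPM in WT on CD and 22.9, 33.4 and 51.3 CPM on HFD. HoipA-KO GWAT held 53.8, 92.4 and 40.3 CPM on CD and 32.9, 59.5 and 42.6 CPM on HFD. The genotypes did not overlap on CD (log2 fold change 3.56, SE 0.414) and overlapped on HFD (0.32, SE 0.364).

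Itgae was the one member that was lower in HoipA-KO than in WT on CD. Its libraries held 3.63, 2.17 and 34.8 CPM in WT on CD and 3.36, 1.72 and 1.49 CPM on HFD. In HoipA-KO it had 0.458, 0.276 and 0.793 CPM on CD and 1.53, 0.248 and 0.748 CPM on HFD. Every HoipA-KO CD library was below every WT library of either diet. The log2 fold change on CD was -2.50 (SE 0.711) without WT CD replicate 3 and -4.75 (SE 0.989) with it. Its counts in the HoipA-KO libraries were few, from 11 to 84.

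**Figure D2:**
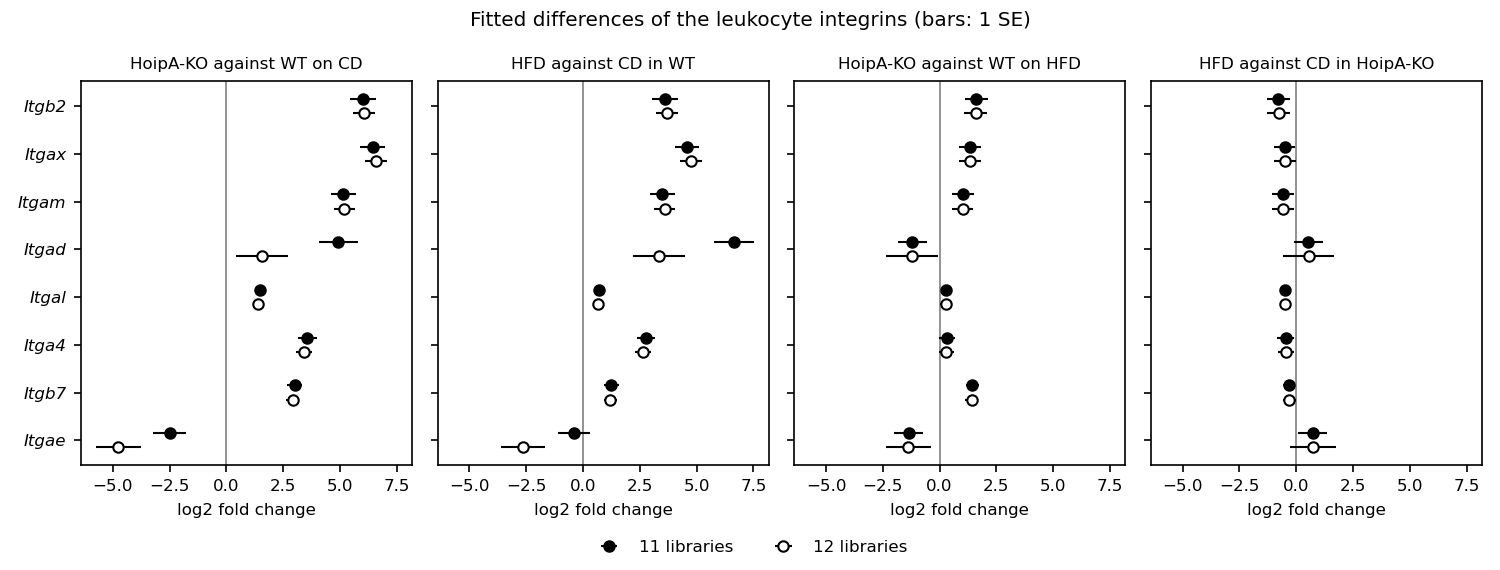
Fitted log2 fold changes of the 8 genes (x axis) in 4 comparisons, with bars of 1 SE, from 11 libraries (filled) and from all 12 (open). The 2 fits differ visibly for Itgad and Itgae in the comparisons with WT CD, and values for HFD against CD in HoipA-KO lie between -0.78 and 0.73.

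Counted over the 8 genes, 7 were higher and 1 lower in HoipA-KO than in WT on CD at an adjusted p under 0.05 by edgeR's quasi-likelihood test, where 37.7% of all 18427 genes tested passed (18.9% higher, 18.8% lower). All 8 genes passed the filter on low counts. The median log2 fold change was 4.24 over the 8 genes and -0.06 over all genes tested. In raw levels over 12 libraries 6 of the 8 were higher in every HoipA-KO CD library than in every WT CD library, as were 21% of genes, and 1 was lower, as were 18.2%. With all 12 libraries in the fit 6 were higher and 1 lower, Itgad being the one lost, where 34.7% of genes passed. In bulk tissue, more cells that carry a receptor and more of its RNA per cell cannot be told apart.

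Between diets in WT, 6 of the 8 genes were higher on HFD, all but Itgal and Itgae, where 14.8% of genes passed (9.35% higher, 5.47% lower). The log2 fold changes were 4.57 (SE 0.543) for Itgax, 3.61 (SE 0.577) for Itgb2, 3.50 (SE 0.551) for Itgam, 2.77 (SE 0.414) for Itga4 and 1.25 (SE 0.322) for Itgb7. The count was 3 without WT CD replicate 2, and it was 0 when only the libraries of these 2 groups were fitted. With all 12 libraries 5 were higher, without Itgad, where 9.05% of genes were higher and 5.97% lower. In raw levels 6 of the 8 were higher in every WT HFD library than in every WT CD library, as were 17.7% of genes, and none was lower, against 10.1%. WT HFD libraries were spread widely, and Itgb2, Itgax, Itgam, Itgad, Itga4 and Itgb7 all had their lowest WT HFD value in replicate 1 and their highest in replicate 3.

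On HFD only Itgb7 was past the threshold between genotypes, where 11.8% of genes passed (4.2% higher, 7.62% lower). The differences of the others were 1.61 (SE 0.514) for Itgb2, 1.35 (SE 0.479) for Itgax, 1.04 (SE 0.489) for Itgam, 0.32 (SE 0.364) for Itga4, 0.28 (SE 0.208) for Itgal, -1.20 (SE 0.636) for Itgad and -1.37 (SE 0.633) for Itgae on the log2 scale. Every HoipA-KO HFD library was above every WT HFD library for Itgb2 and Itgb7, as for 21% of genes, and none of the 8 was below, against 23% of genes. Over 12 libraries Itgb7 was again the one gene past the threshold, where 0.531% of genes were higher and 2.25% lower. The call of Itgb7 was lost when replicate 1 or 2 of WT HFD, or replicate 2 or 3 of HoipA-KO HFD, was left out, and 3 genes passed without WT HFD replicate 3. In HoipA-KO mice none of the 8 genes passed between diets, nor did any other gene (0%). An unadjusted p under 0.05 was found for 1 of the 8. The share of all genes at that threshold was not taken, so nothing is read from this count. DESeq2's Wald test called none of the 8 and 7 genes in all. In raw levels Itgal was lower in every HoipA-KO HFD library than in every HoipA-KO CD library, as were 2.46% of genes, and none of the 8 was higher in every one, against 3.39%. The log2 fold changes ran from -0.78 (SE 0.514) for Itgb2 to 0.73 (SE 0.645) for Itgae, with HoipA-KO HFD libraries spread from 364 to 1212 CPM for Itgb2.

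HoipA-KO mice on CD were also set against WT mice on HFD, which asks how the deletion compares with the diet. Here Itgb2, Itgb7, Itgax and Itgal were higher in HoipA-KO CD, with log2 fold changes of 2.40 (SE 0.514), 1.75 (SE 0.283), 1.86 (SE 0.479) and 0.77 (SE 0.208), where 15.8% of genes passed (6.78% higher, 9.07% lower). Over all 12 libraries Itgb2 and Itgb7 alone passed, where 5.53% of genes did (1.71% higher, 3.82% lower). In raw levels 5 of the 8 were higher in every HoipA-KO CD library than in every WT HFD library, as were 23.8% of genes, and Itgae was lower, as were 23%. Leaving out WT HFD replicate 2 or any 1 library of HoipA-KO CD left 1 of the 4, and leaving out HoipA-KO HFD replicate 3 left 2.

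The interaction term, the change with the diet in HoipA-KO minus that in WT, was negative and past the threshold for Itgad (-6.12, SE 1.08), Itgax (-5.09, SE 0.724), Itgb2 (-4.40, SE 0.773), Itgam (-4.09, SE 0.737) and Itga4 (-3.24, SE 0.551), where 3.91% of genes passed (0.331% higher, 3.58% lower). Over 12 libraries 4 of these 5 passed, without Itgad, where 2.78% of genes did (0.0775% higher, 2.7% lower). None passed when WT CD replicate 2, WT HFD replicate 2, HoipA-KO HFD replicate 1 or 3, or any 1 library of HoipA-KO CD was left out, and 2 passed without WT HFD replicate 3. In the fits in which none of the 8 passed, 1 to 4 of all genes did. These comparisons share groups of libraries, so they are not independent of each other.

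Levels of different genes were compared per length, as CPM divided by the length of the longest coding transcript in kb. Itgb2 had the highest mean in every group, from 5.61 ± 0.846 CPM per kb in WT CD to 386 ± 77.0 in HoipA-KO CD (SD, n = 3). In HoipA-KO CD it was followed by Itgax (137 ± 15.2), Itgam (93.4 ± 37.3), Itgb7 (13.1 ± 1.96), Itga4 (6.36 ± 2.77), Itgal (2.09 ± 0.154), Itgad (1.94 ± 0.768) and Itgae (0.132 ± 0.0683). Of these neighbours Itgax and Itgam, and Itgal and Itgad, overlapped between libraries. In WT CD the order after Itgb2 was Itgae (3.52 ± 4.80, with replicate 3 at 9.06), Itgam (2.47 ± 0.341), Itgb7 (1.68 ± 0.0898), Itgax (1.39 ± 0.326), Itgal (0.771 ± 0.0446), Itgad (0.629 ± 0.978) and Itga4 (0.580 ± 0.0716), where only Itgam and Itgb7, and Itgax and Itgal, did not overlap as neighbours.

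**Figure D3:**
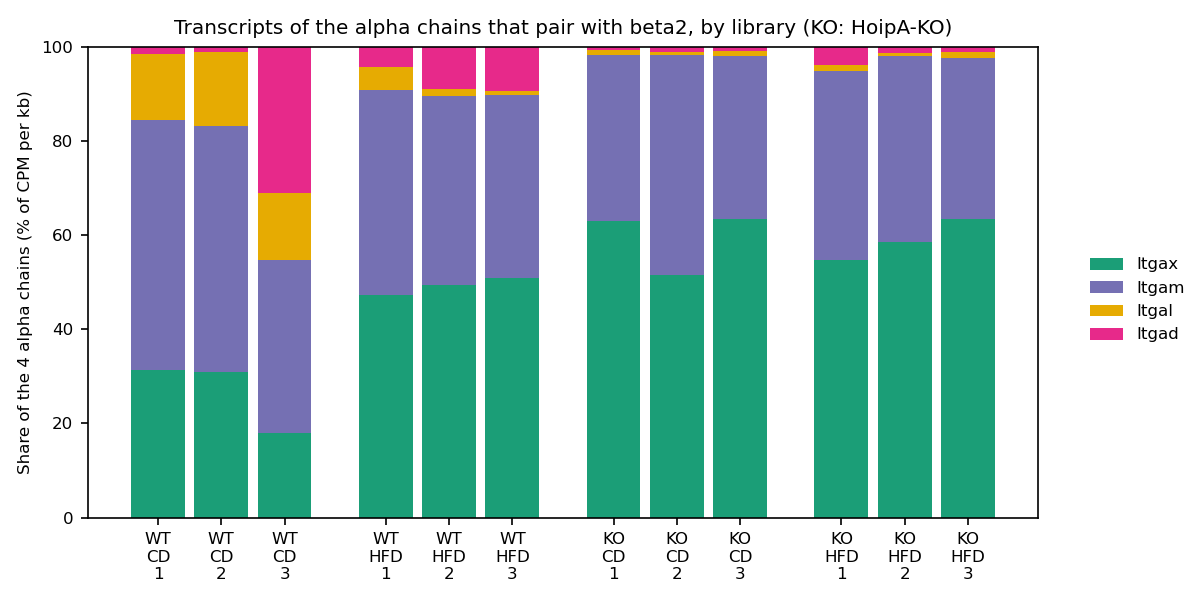
Share (%) of Itgax, Itgam, Itgal and Itgad in their summed CPM per kb, 1 bar per library, 3 libraries per group. Itgam is the largest share in each WT CD library and Itgax in each of the others, Itgal shrinks from over 14% in WT CD to under 5% elsewhere, and Itgad is largest in WT CD replicate 3 and in WT HFD.

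Within the 4 alpha chains that pair with Itgb2, the makeup therefore differed between groups. Itgam made up 47.3 ± 9.19% of their summed CPM per kb in WT CD, against 26.8 ± 7.65% for Itgax, and was the larger share in each of the 3 libraries. In HoipA-KO CD Itgax made up 51.6% to 63.4% and Itgam 34.6% to 46.7%. On HFD the Itgax share was 49.2 ± 1.77% in WT and 58.9 ± 4.37% in HoipA-KO (SD, n = 3), and it exceeded the Itgam share in every library outside WT CD. Itgal made up 14.7 ± 0.892% in WT CD, against 2.41 ± 2.17% in WT HFD and 0.924 ± 0.224% in HoipA-KO CD. With the length of all exons joined in place of the longest transcript, the shares of Itgax and Itgam in HoipA-KO CD were 57.0% and 41.3%.

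Set against their beta chain, the alpha chains did not keep a constant ratio. The log2 ratio of Itgax to Itgb2 counts was -1.58 ± 0.206 on CD and -0.58 ± 0.195 on HFD in WT, and -1.04 ± 0.164 on CD and -0.68 ± 0.341 on HFD in HoipA-KO (SD, n = 3). That of Itgam was -0.53 ± 0.0921 in WT CD, -0.64 ± 0.0853 in WT HFD and lower, at -1.44 ± 0.271, in HoipA-KO CD, with no overlap between the HoipA-KO CD libraries and either WT group. That of Itgal was -2.04 ± 0.299 in WT CD and -6.70 ± 0.358 in HoipA-KO CD. For the other family, the log2 ratio of Itga4 to Itgb7 was 0.32 ± 0.128 on CD and 1.71 ± 0.400 on HFD in WT, and 0.75 ± 0.476 on CD and 0.73 ± 0.244 on HFD in HoipA-KO. All WT HFD libraries lay above those of the other groups in this ratio. The ratio of Itgae to Itgb7 was -0.64 ± 0.478 in WT CD without replicate 3 and -6.20 ± 0.889 in HoipA-KO CD.

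The genes of 7 related lists, 68 in all and 67 tested, were then taken as the surroundings of these receptors. These lists were also chosen with earlier results of these data known. Their counts and adjusted p-values are therefore a description and not an independent test. In HoipA-KO against WT on CD 35 rose and 10 fell, with a median log2 fold change of 1.04. Over 12 libraries 35 rose and 6 fell. Beside these and the counts of single lists on CD below, 18.9% of all genes tested were higher and 18.8% lower. Over 12 libraries these shares were 15.6% and 19.1%. The ligands were mixed, 7 of 17 rising and 2 falling. Icam1, the endothelial and leukocyte ligand of Itgal and Itgam, had 9.29 to 16.9 CPM in WT CD and 58.3 to 61.5 in HoipA-KO CD (log2 fold change 1.93, SE 0.154, adjusted p = 0.000452 by edgeR). Vcam1, a ligand of Itga4, had 23.8 to 42.1 CPM in WT CD and 49.4 to 136 in HoipA-KO CD (1.58, SE 0.451, adjusted p = 0.0274 by edgeR). Fn1 (fibronectin, 2.54, SE 0.273) and Spp1 (osteopontin, 5.16, SE 0.975), both matrix ligands, rose as well, and so did Icam4 (4.21, SE 0.956), which stayed at 0.331 to 0.631 CPM in HoipA-KO CD. F11r, a junctional ligand of Itgal, fell by 1.29 on the log2 scale (SE 0.314).

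Madcam1, the mucosal vessel ligand of Itga4 with Itgb7, was at or under 0.293 CPM in every library and had a log2 fold change of 1.04 (SE 1.22, adjusted p = 0.499 by edgeR). Cdh1, the epithelial ligand of Itgae, had 0.0239 CPM in WT CD replicate 1, 192 in replicate 2 and 10.4 in replicate 3, against 1.04 to 2.05 in HoipA-KO CD. The high library is the one with the highest sum of epididymis and sperm markers, and the difference did not pass (adjusted p = 0.051 by edgeR). Fga, Itgb6 and Skap1, which count among the 10 that fell, had 30.4, 6.51 and 19.1 CPM in WT CD replicate 2 and at most 1.90 CPM in each other library. Over 12 libraries Itgb6 and Skap1 no longer passed (adjusted p = 0.0649 and 0.0592 by edgeR). The part of RNA from the epididymis in these differences was not tested.

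Of 13 genes that switch integrins on 7 rose and 4 fell, and over 12 libraries 7 rose and 2 fell. Fermt3 (kindlin-3, the kindlin of blood cells) rose by 4.64 (SE 0.409, adjusted p = 0.000452 by edgeR), from 6.60 to 8.54 CPM in WT CD to 171 to 208 in HoipA-KO CD. Fyb (ADAP, 4.35, SE 0.465), Apbb1ip (RIAM, 3.55, SE 0.378) and Tln1 (talin-1, 1.88, SE 0.335) rose too, Fyb with a WT CD replicate 3 of 28.7 CPM against 4.19 and 5.54 in the others. Tln2 fell by 2.11 (SE 0.285), from 140 to 184 CPM in WT CD to 31.9 to 34.6 in HoipA-KO CD, and Rasgrp2 fell by 1.47 (SE 0.429, adjusted p = 0.0224 by edgeR, and 0.0529 over 12 libraries). Of 5 genes known to restrain integrins 4 rose and 1 fell. Cytip (2.47, SE 0.287), Dok1 (2.35, SE 0.254) and Flna (1.64, SE 0.235) rose, and Itgb1bp1 fell by 0.73 (SE 0.240). Sharpin, an inhibitor of integrin activation and itself a subunit of LUBAC, had 25.5 to 28.0 CPM in WT CD and 34.0 to 39.4 in HoipA-KO CD (0.42, SE 0.133, adjusted p = 0.0333 by edgeR), and on HFD at most 25.5 CPM in WT and up to 38.1 in HoipA-KO, without overlap (0.46, SE 0.119, adjusted p = 0.0391 by edgeR, and 0.104 over 12 libraries).

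Kinases and adaptors that signal from bound integrins in leukocytes rose together, 10 of 10, with a median of 3.68. Tyrobp (DAP12) had 13.5 to 24.0 CPM in WT CD and 613 to 786 in HoipA-KO CD (5.04, SE 0.453), and Syk rose by 4.20 (SE 0.456). Selplg, the selectin ligand of rolling leukocytes, rose by 3.54 (SE 0.316), and Sele, the endothelial selectin, by 2.18 (SE 0.556) from levels of at most 0.457 CPM, a call lost over 12 libraries (adjusted p = 0.0924 by edgeR). Integrin chains that are not typical of leukocytes were counted too. Of 12 alpha chains 3 rose and 2 fell, with a median of 0.145, and of 6 beta chains tested 2 rose and 1 fell, with a median of 0.59. Of all genes tested 18.9% were higher and 18.8% lower, so nothing is read from these small counts. Itga5 (2.41, SE 0.319), Itgb3 (2.79, SE 0.312), Itga11 (1.22, SE 0.314), Itga9 (1.04, SE 0.198) and Itgb5 (0.75, SE 0.251) rose, while Itga1 fell by 1.60 (SE 0.417) and Itga6 by 0.96 (SE 0.238). The calls of Itga11 and Itga6 were lost over 12 libraries (adjusted p = 0.309 and 0.0852 by edgeR). In that fit Itgav (1.22, SE 0.382) and Itgb1 (0.79, SE 0.271), the beta1 chain, were called higher (adjusted p = 0.034 and 0.0457 by edgeR), which gave 3 higher and 1 lower of the alpha chains and 3 higher and 0 lower of the beta chains.

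**Figure D4:**
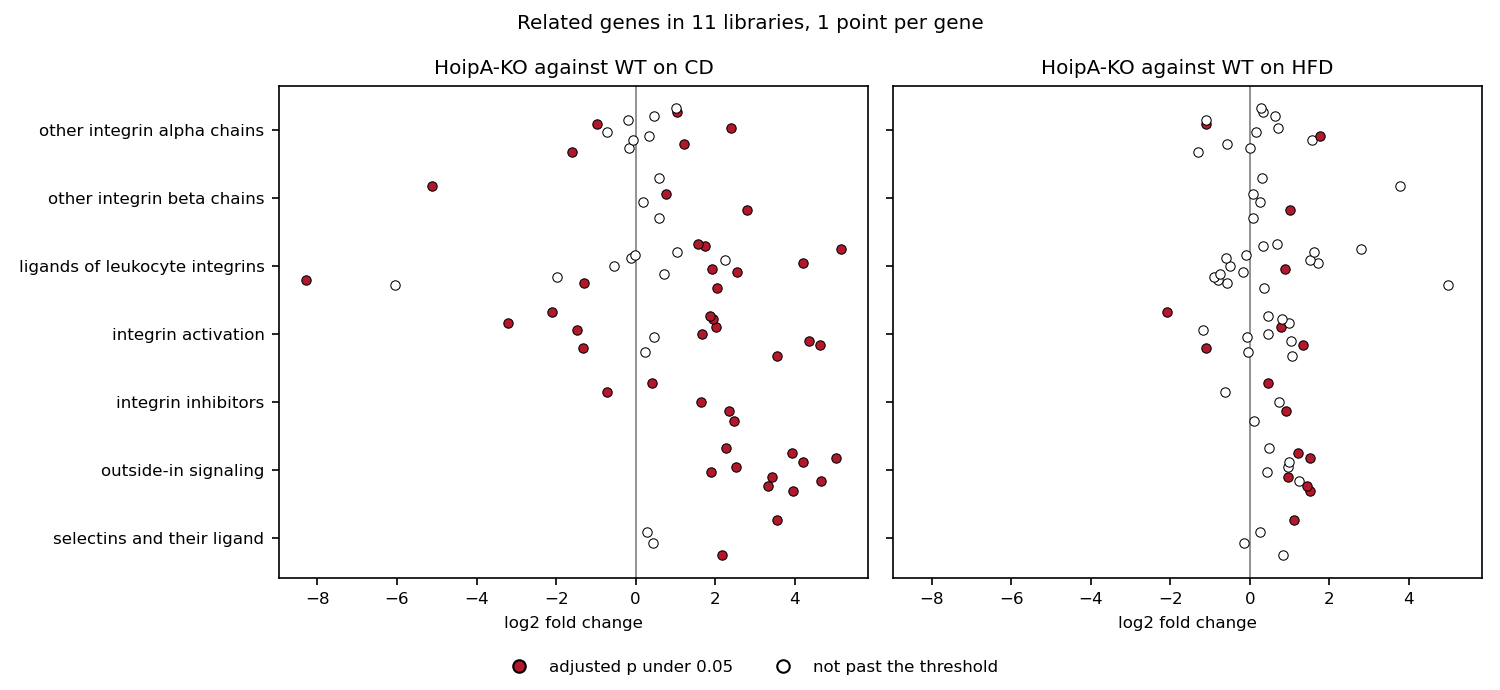
Log2 fold changes of 67 related genes in 7 lists (1 point per gene) between HoipA-KO and WT on CD (left) and on HFD (right), filled where the adjusted p is under 0.05. On CD 45 genes are past the threshold, beside 37.7% of all genes tested, and on HFD 16, beside 11.8%. All 10 outside-in signaling genes lie above 0 on CD.

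The same lists gave 28 genes higher and 3 lower between diets in WT, with a median of 1.12, and the outside-in signaling genes 9 of 10 higher. Of all genes tested 9.35% were higher and 5.47% lower there. Between genotypes on HFD, where 4.2% of all genes were higher and 7.62% lower, 13 were higher and 3 lower, with a median of 0.46. Over 12 libraries, where 0.531% of all genes were higher and 2.25% lower, only 2 were higher and 1 lower. Among the 16 were Tln2 (fell by 2.09, SE 0.255), Fermt3 (1.34, SE 0.361), Icam1 (0.89, SE 0.137), Selplg (1.10, SE 0.28) and Itgb3 (1.01, SE 0.275). Between diets in HoipA-KO none passed by edgeR or by DESeq2, and 4 of 67 had an unadjusted p under 0.05. Nothing is read from that count, since the share of all genes at that threshold was not taken. HoipA-KO CD against WT HFD gave 15 higher and 7 lower, with a median of 0.44, where 6.78% of all genes were higher and 9.07% lower. In the interaction 0.331% of all genes were higher and 3.58% lower. The interaction was negative for 17 and positive for none, with a median of -0.89, and 0 passed without WT CD replicate 2, WT HFD replicate 2, HoipA-KO HFD replicate 1 or 3, or any 1 library of HoipA-KO CD.

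Markers of some leukocyte types moved beside these genes. Between genotypes 18.9% of all genes tested were higher and 18.8% lower on CD, and 4.2% and 7.62% on HFD. Over 12 libraries these shares were 15.6% and 19.1% on CD, and 0.531% and 2.25% on HFD. Of 8 macrophage markers 7 rose on CD, and their summed level in WT was 290 to 471 CPM on CD and 1088 to 3282 CPM on HFD, against 4388 to 4961 CPM and 3966 to 5550 CPM in HoipA-KO. Of 8 markers of lipid-associated macrophages 7 rose, with Gpnmb at 13.3 to 31.9 CPM in WT CD and 5674 to 8881 in HoipA-KO CD. Their summed level in WT was 5230 to 15790 CPM on CD and 13640 to 17340 CPM on HFD, against 20500 to 27120 CPM and 12800 to 24140 CPM in HoipA-KO. Lpl, the marker that did not rise, had 4942 to 15020 CPM in WT CD and 6157 to 9268 in HoipA-KO CD. On HFD it had 11460 to 12820 CPM in WT and 5500 to 7301 in HoipA-KO. It thus made up most of each WT sum, and these sums mainly follow Lpl in WT. By single genes, 5 of these 8 markers rose and 0 fell between genotypes on HFD, and 1 rose over 12 libraries. Of 7 mast cell markers 6 rose, and their sum in WT was at most 29.8 CPM on CD and 27.4 to 214 CPM on HFD, against 558 to 674 CPM and 309 to 849 CPM in HoipA-KO. Dendritic cell markers, among which Itgae and Itgax are also expressed, summed to 16.4 to 28.7 CPM in WT CD and 25.0 to 38.9 in HoipA-KO CD, with 3 of 7 past the threshold and 2 of 7 over 12 libraries. T cell markers (7.30 to 13.5 CPM in WT CD and 9.35 to 25.0 in HoipA-KO CD, 1 of 8 rising), NK cell markers (2.80 to 3.65 and 2.96 to 6.45, 1 of 6, and 0 of 6 over 12 libraries) and B cell markers (4.63 to 23.4 and 4.01 to 11.6, 0 of 5) stayed low. The counts of rising T cell and NK cell markers are near the share of all genes on CD. On HFD T cell markers summed to 9.66 to 17.4 CPM in WT and 23.1 to 23.5 in HoipA-KO, 1 of 8 rising and 0 over 12 libraries. NK cell markers (3.89 to 6.02 and 3.99 to 10.0, 0 of 6) and B cell markers (3.45 to 29.3 and 6.13 to 9.21, 0 of 5) overlapped there. The sums of dendritic cell and of neutrophil markers also overlapped between genotypes on HFD. Neutrophil markers summed to 4.21 to 6.97 CPM in WT CD and 14.5 to 26.4 in HoipA-KO CD, 1 of 6 tested rising, and Ly6g, which defines neutrophils, was at or near 0 in every library. Adipocyte markers moved the other way, 7 of 8 falling on CD (median log2 fold change -1.79) and 8 of 8 on HFD (-2.03), or 6 and 5 over 12 libraries. Their sums in WT were 10960 to 37570 CPM on CD and 21020 to 27520 CPM on HFD, against 6243 to 8931 CPM and 5517 to 7856 CPM in HoipA-KO. The part of each cell type in the levels of the integrins was not tested.

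Over the 11 libraries the genes most like each member were ranked by Pearson's r of log2(CPM + 1) among 15777 others with a mean of at least 1 CPM. Since the libraries fall into 4 groups, r mostly follows the differences between groups, and it is given without a test. Itgam was most like Cd200r1 (0.999), Naip2 and Cybb (both 0.997), Itgax most like Myo1f and Cd84 (both 0.998) and Gpnmb (0.997), and Itgb2 most like Kcnab2 (0.998), Ncf1 and Lilrb4b (both 0.997). Cybb and Ncf1 encode subunits of the phagocyte NADPH oxidase. Itga4 was most like Camk1d and Ptprc (both 0.994) and Specc1 (0.993), where Ptprc encodes CD45, the common antigen of leukocytes. For Itgb7, 1600010M07Rik (0.993) and Srd5a3 (0.992) were among the 3 most like it. Itgal was most like Slc3a2 (0.946), Ryr1 (0.942) and Ccl22 (0.937). Itgad was most like Gpc6 (0.938), Prrx1 (0.933) and Piezo2 (0.928), the first 2 of which are genes of stromal cells. Itgae was most like Ctnnal1 (0.978), Pdxp (0.976) and Chn1 (0.975). With WT CD replicate 3 included r was 0.67 for Ctnnal1 and 0.542 for Pdxp, and none of the 3 genes most like Itgad or Itgae stayed among the 3. The 3 genes of Itgax and of Itgam stayed, while 2 stayed for Itga4 and 1 each for Itgb2, Itgal and Itgb7.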

How the data were processed

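RNA sequencing of GWAT covered 12 libraries in 4 groups of 3. The authors ran the nf-core pipeline with Trim Galore 0.6.7, STAR 2.7.10a and Salmon 1.5.2, and deposited estimated counts per gene without normalization, for all genes and for protein-coding genes. The submitters' processing notes name the build GRCm38, while the methods name a human assembly. The identifiers are those of mouse genes, and all 8 matched GENCODE M21, which was used for positions and lengths. The authors' tables of DESeq2 comparisons (fold changes, p-values and means) were not used.

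The integrin genes and the related lists were chosen with earlier results of these data known. Estimated counts were rounded, low genes were removed by filterByExpr, and 1 edgeR model (4.0.16, R 4.3.3, TMM normalization) held all 4 groups. Each contrast used the quasi-likelihood test of edgeR, with p-values adjusted by Benjamini-Hochberg over all genes tested and a threshold of 0.05. The model used 11 libraries, without WT CD replicate 3 as in the study's comparisons, and was repeated over 12. CPM values were normalized by TMM over all 12 libraries. Library totals ran from 30513500 to 60540260 counts. Ratios used a prior of 0.5 counts. SD values are between pools. The labels do not say how mice were assigned to pools, so the p-values measure the spread between pools only. Scripts were tested on simulated counts.

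Genes named are the 8 integrins, in each related list up to 3 genes with the largest rise and up to 3 with the largest fall past the threshold in HoipA-KO against WT on CD, Sharpin, Icam1, Vcam1, Madcam1, Cdh1, Fermt3, Tln1 and Rnf31 in every case, the 3 genes most like each integrin, and genes of marker lists. Haspin, 4931431B13Rik and Gm49368 were added to these once their values were known. The alternatives tried were scaling by library size or by the size factors of DESeq2, at least 10 counts in every library or no filter, protein-coding genes only, all 12 libraries, a replicate block, DESeq2's Wald test (DESeq2 1.42.0), only the groups compared, other pairs of WT CD libraries, and leaving out each library. Joined exon length, adding Gm49368 to Itgam, and ratios without WT CD replicate 3 were added after seeing the data. Some genes that the rule for named genes covers are not reported here.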

Additional observations from a re-analysis of the deposited data

Results flagged for a closer look

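The change with the diet differed between genotypes, by the interaction term of edgeR's model over 11 libraries with Benjamini-Hochberg adjustment at 0.05, for 5 integrins and 10 related genes among those named, where 3.91% of all genes passed. The differences, HoipA-KO minus WT on the log2 scale, were -5.09 for Itgax, -6.12 for Itgad, -4.09 for Itgam, -4.40 for Itgb2 and -3.24 for Itga4. The integrins were chosen with these values known, and the related lists with earlier results of these data known, so the differences are a description. Most of the related genes named were picked by their difference between genotypes on CD. That difference also enters this term, so nothing is read from the 10 beside the share of all genes. Of all 67 related genes tested, 17 passed. Among related genes they were -1.78 for Itgb3, -1.04 for Icam1, -2.71 for Fn1, -3.30 for Fermt3, -2.48 for Apbb1ip, -3.31 for Fyb, -2.37 for Cytip, -3.23 for Syk, -3.53 for Tyrobp and -2.44 for Selplg. In WT each of these genes was higher on HFD than on CD, while in HoipA-KO none was past the threshold between diets. Over all 12 libraries the term no longer passed for Itgad, nor for Itgb3, Icam1, Fyb and Cytip, with adjusted p of 0.056, 0.0609, 0.28 and 0.0937 by edgeR for these 4. None of the 5 integrins passed when WT CD replicate 2, WT HFD replicate 2, replicate 1 or 3 of HoipA-KO HFD, or any 1 library of HoipA-KO CD was left out, and in those fits 1 to 4 of all genes did. The replicate block left 3 of the 5.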

How the results depend on the processing

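Between genotypes on CD, 7 or 8 integrins and 37 to 48 related genes passed under all 22 alternatives. Between diets in HoipA-KO none of either passed under any. The fitted differences of all 8 integrins kept their direction in the comparisons between genotypes, in HoipA-KO CD against WT HFD and in the interaction, and 7 of 8 did between diets within a genotype, Itgae being the exception. On HFD, against 1 integrin and 16 related genes, DESeq2's Wald test called 3 and 29, all 12 libraries gave 3 related genes, and WT CD replicates 2 and 3, or 1 and 3, in place of 1 and 2 gave 6 and 5. Without 1 library the integrins called were 0 to 3 and the related genes 2 to 26. Between diets in WT, against 6 and 31, a fit of only the groups compared called 0 and 0, and without 1 library 3 to 6 and 19 to 36. For HoipA-KO CD against WT HFD, against 4 and 22, all 12 libraries gave 2 and 12, DESeq2 7 integrins, WT CD replicates 2 and 3 gave 2 integrins, replicates 1 and 3 gave 2 and 10, and without 1 library there were 1 to 6 and 6 to 28. For the interaction, against 5 and 17, DESeq2 called 29 related genes, WT CD replicates 2 and 3 gave 30 and replicates 1 and 3 gave 8, and without 1 library there were 0 to 6 and 0 to 30. Where a WT CD library was left out, the lone one was assumed to vary like the other groups. Causes were not tested.

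The replicate block left 3 of 5 integrins in the interaction and changed no other count by over 1.5 times among the integrins and related genes. Over all groups the numbers were not taken to pair the libraries: r of same-numbered deviations was -0.375 to 0.508, over 0.1 in 6 of 15 pairs, and 5 of 11 libraries were closest to one of their own number. Between HoipA-KO CD and HoipA-KO HFD all 3 same-numbered pairs were over 0.1 (0.15, 0.508 and 0.276), and there the block called 0 genes, as did the fit without it.

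Over all genes, calls on CD were 6947, and 4208 with only the groups compared. On HFD they were 2179, against 503 over 12 libraries, 4455 by DESeq2 and 279 to 3797 without 1 library (279 and 331 without replicate 1 or 2 of WT HFD, and 313 and 550 without replicate 2 or 3 of HoipA-KO HFD). Between diets in WT they were 2731, against 4551 by DESeq2, 1502 with the block, 0 with only the groups compared and 1045 to 5985 without 1 library. For HoipA-KO CD against WT HFD they were 2920, against 999 over 12 libraries, 4956 by DESeq2, 4610 with only the groups compared and 493 to 4416 without 1 library. For the interaction they were 721, against 2374 by DESeq2, 377 with the block, 3668 without WT CD replicate 1, 226 without WT HFD replicate 3, and 1 to 4 in the 7 fits in which no integrin passed. With library size in place of TMM, 53.0% of calls on HFD were higher in HoipA-KO in place of 35.5%, and 75.7% of those between diets in WT were higher on HFD in place of 63.1%. This scaling moved the median of all genes between diets in HoipA-KO from -0.01 to 0.09.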
